A study of Mus musculus with 3 samples.

Results

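Mouse chromosome 18 held 1737 of the 50965 open regions found by ATAC-seq in 4 BCR-ABL(p185) leukemic cell lines. A region was a stretch of overlapping peaks, merged over all 4 lists with an overlap of at least 1 bp. The chromosome was chosen by a measured value: the background of reads around its peaks was high in both wildtype lists and low in both K43M lists. The contrast between the genotypes on this chromosome is therefore described below and not tested.

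ATAC-seq marks accessible chromatin, because a transposase cuts and tags DNA that nucleosomes leave free. Open regions are found at promoters, where transcription starts, and at distal enhancers and insulators. Chromosome 18 carries the clustered protocadherins, surface proteins best known from neurons, the desmosomal cadherins of epithelia and heart, and widely used genes of the cell cycle, mitochondria and chromatin. It also carries lymphocyte regulators such as *Tcf4*, whose product is an E protein that drives B-cell development.

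The pre/pro-B-cell lines had arisen from mouse bone marrow after retroviral transfer of BCR-ABL(p185). All 4 lines carried the oncogene. The donors of 2 lines had 2 wildtype *Cdk6* copies (*Cdk6* +/+, called WT), and those of the other 2 lines had 2 copies of the kinase-inactive K43M mutant (*Cdk6* KM/KM, called K43M). CDK6 is a cyclin-dependent kinase of G1 that also acts on transcription. Each list came from 1 established line, so differences between genotypes and differences between lines cannot be told apart. The lists are called WT unnumbered, WT replicate 2, K43M replicate 1 and K43M replicate 2. WT unnumbered had no sample label of its own and was placed with the wildtype lines from the description of the series. According to that text, the data of 1 wildtype line had been in use before. If this line is WT unnumbered, its list differs from the others in data set as well as in line. Results are therefore also given without WT unnumbered. B-lineage promoters were open as labelled: of 10 B-lineage genes, 9, 9, 9 and 7 had a promoter peak in the lists in this order, against 1, 2, 2 and 2 of 6 T-lineage genes, 0, 1, 0 and 1 of 6 myeloid genes and 0, 0, 1 and 0 of 6 erythroid genes. Over all 20294 protein-coding genes of the other autosomes, 10533, 10520, 11206 and 10921 had a promoter peak in the lists. The B-lineage gene *Vpreb3* had none in any list.

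The lists held 33038, 34248, 39038 and 34752 peaks. On chromosome 18 lay 1232 and 1245 of them for the WT lists (unnumbered, then replicate 2) and 1218 and 1017 for the K43M lists (replicate 1, then replicate 2). As a share of the autosomal peaks of each list this was 3.84%, 3.74%, 3.21% and 3.02%, so that both WT lists stood above both K43M lists. The peak counts themselves did not separate as clearly: K43M replicate 1 was 14 peaks below WT unnumbered, and the gap between the K43M lists was 201 peaks. The peaks covered 644, 613, 599 and 491 kb of the chromosome. Median peak widths were 370, 360, 371 and 383 bp, shorter than the 421, 397, 390 and 398 bp of the other autosomes in every list.

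Peak strength relative to the surroundings was alike in the 4 lists. The fold enrichment of a peak is its signal at the summit over the background of the same library. Its median on chromosome 18 was 6.66, 6.47, 6.76 and 6.62, and on the other autosomes 6.94, 6.72, 6.76 and 6.61. The 2 counts behind this ratio are the summit pileup (read ends within 200 bp) and the background (read ends in the surrounding 10 kb). Median pileup on chromosome 18 was 26 and 24 in the WT lists and 21 and 20 in the K43M lists, beside 27, 23, 23 and 22 on the other autosomes. Median background was 148 and 134 read ends per 10 kb in the WT lists, against 106 and 109 in the K43M lists, beside 146, 125, 119 and 117 on the other autosomes. Uncentred background was thus lower in the K43M lists on the other autosomes too, by a smaller step.

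A set of 662 regions, with a peak in every list, gave the same places in each library. At these regions the background, on the log2 scale and relative to the autosomal median of each list, was 0.24 and 0.28 in the WT lists and -0.16 and -0.20 in the K43M lists. Taken region by region, K43M minus WT had a median of -0.47, with quartiles of -0.64 and -0.26, which is 0.723 times the WT background. After this centring the K43M mean was the lower one at 87.9% of these regions. Leaving out any 1 list gave values between -0.48 and -0.44, and without WT unnumbered the value was -0.46. The background window of 10 kb also holds the reads of the peak itself.

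Summit pileup differed in the same direction, by a median of -0.37 on the log2 scale or 0.773 times. The medians relative to the autosomes were 0.24 and 0.15 in the WT lists and -0.10 and -0.15 in the K43M lists. Fold enrichment divides pileup by background, so that a factor common to both is largely lost from it. Its medians were 0.01, -0.02, 0.02 and 0.01 in the 4 lists, and the difference between the genotypes was 0.02, or 1.01 times. The K43M mean of fold enrichment was the lower one at 46.8% of the regions.

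Chromosome 18 was not the only autosome of this kind. Chromosome 13 had a background difference of -0.36 and chromosome 12 one of -0.21, against 0.12 for chromosome 5. The share of autosomal peaks, as K43M mean over WT mean, was 0.823 for chromosome 18, 0.821 for chromosome 13 and 0.915 for chromosome 12. The plot by chromosome shows all 19 autosomes: chromosomes 12, 13 and 18 are those on which both K43M lists lie well below both WT lists in background.

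**Figure D1:**
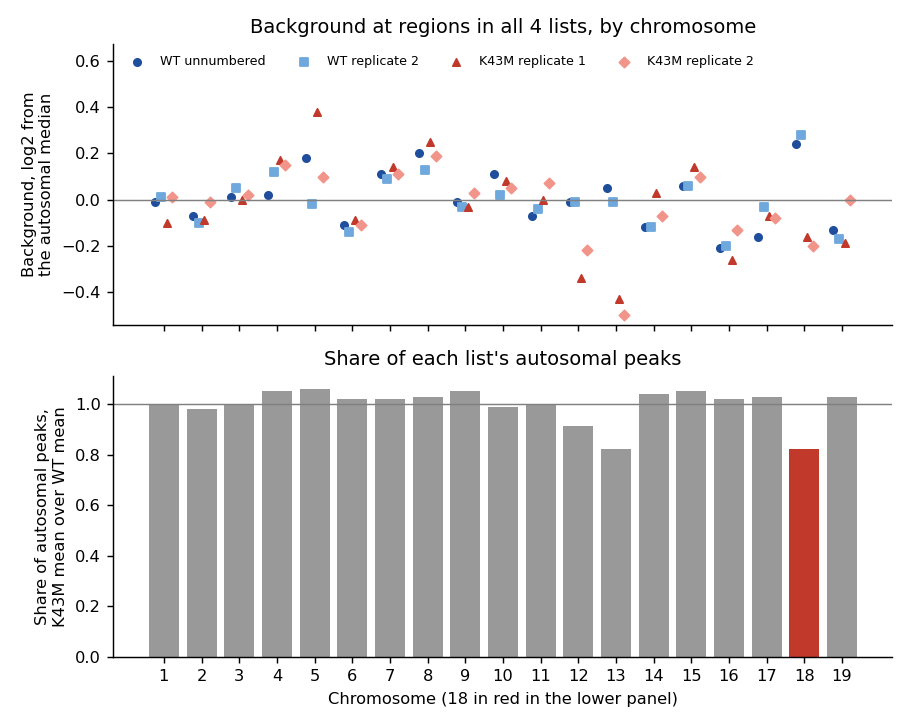
Upper panel, median background of each autosome at the regions that all 4 lists share, on the log2 scale relative to the autosomal median of the same list, with 1 point per list. Lower panel, K43M mean over WT mean of the share of autosomal peaks on each chromosome; the bar of chromosome 18, in red, is at 0.823 and that of chromosome 13 at 0.821.

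Along the chromosome the median difference in background between the genotypes had the same sign in every window. In 5 Mb windows, numbered 1 to 19 from the centromeric start, K43M minus WT was below 0 in 19 of 19 windows for background (-0.65 to -0.15) and in 19 of 19 for pileup (-0.56 to -0.12). For fold enrichment it was below 0 in 5 of 19 windows, with a range of -0.04 to 0.21. In the 12 windows with at least 20 shared regions, background ranged from -0.61 to -0.32. The medians of single lists were not always apart: the genotypes overlapped or were level in window 12 for background, and in windows 4, 6, 9 and 12 for pileup. In window 12 the median background over 19 shared regions was -0.35 and -0.61 in the WT lists and -0.31 and -0.64 in the K43M lists.

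The size of the difference was not even along the chromosome. Background differed by -0.56 in windows 1 to 6 (135 shared regions), by -0.50 in windows 7 to 12 (233 regions) and by -0.40 in windows 13 to 19 (294 regions). Pileup followed with -0.43, -0.41 and -0.31. Fold enrichment was 0.02, 0.01 and 0.02 over the same stretches, so that no slope was seen in it. Window 15 had the highest fold enrichment difference, 0.21 over 31 regions, with medians of -0.07 and -0.02 in the WT lists and 0.20 and 0.16 in the K43M lists. The difference in background was also present away from promoters, with -0.50 at 285 promoter regions and -0.44 at the other 377.

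**Figure D2:**
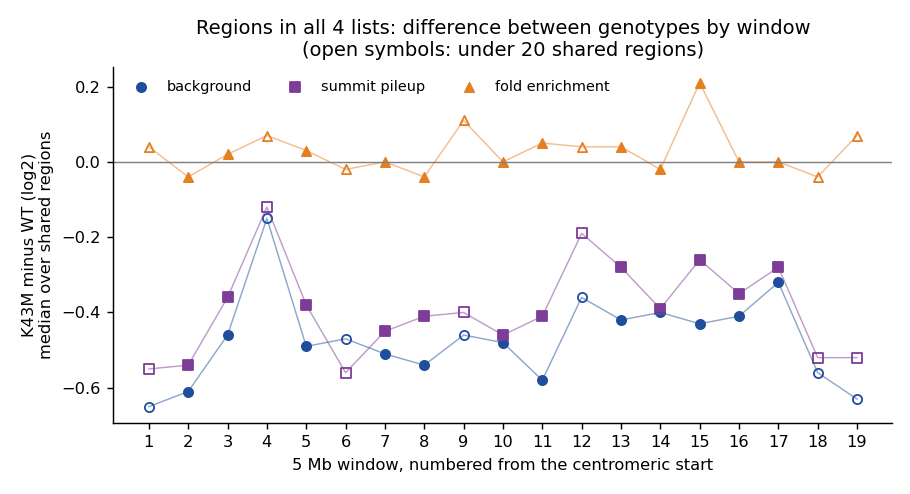
K43M minus WT on the log2 scale, as the median over regions shared by all 4 lists, in each 5 Mb window of chromosome 18, for background (circles), summit pileup (squares) and fold enrichment (triangles); open symbols mark windows with under 20 such regions. Background and pileup lie below 0 in all 19 windows, while fold enrichment stays between -0.04 and 0.21.

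Peak calls sorted the 1737 regions into classes. All 4 lists had a peak at 662 regions (38.1%, 95% Wilson interval 35.9 to 40.4), beside 41.2% of all merged regions of the genome. Both WT lists and neither K43M list had a peak at 156 regions (8.98%, 7.73 to 10.4), called strictly WT-only, beside 4.51% genome-wide. The reverse, strictly K43M-only, held for 82 regions (4.72%, 3.82 to 5.82), beside 7.64% genome-wide. Strictly WT-only regions thus outnumbered strictly K43M-only regions on this chromosome, while genome-wide their order was the opposite. Chromosome 18 was not alone in this order. Per 100 shared regions there were 23.6 WT-only and 12.4 K43M-only regions on chromosome 18, and 21.4 and 12.2 on chromosome 13. Chromosome 12 had the same order by a small margin, and the remaining autosomes had more K43M-only regions. The intervals cover counting error only, and the same contrast had served to choose the chromosome.

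Single lists contributed unevenly to these classes. A total of 502 regions had a peak in 1 list, 341 in 2 lists and 232 in 3 lists. Of the regions in 1 list, 161 and 131 belonged to the WT lists and 148 and 62 to the K43M lists, K43M replicate 2 having the fewest. Of the regions in 3 lists, 105 lacked K43M replicate 2, 59 lacked WT unnumbered, 43 lacked WT replicate 2 and 25 lacked K43M replicate 1. K43M replicate 2 was therefore the list most often missing on this chromosome. On the other autosomes, regions in 3 lists most often lacked WT unnumbered (4.19% of regions), ahead of K43M replicate 2 (3.67%). Regions with a peak in K43M replicate 2 alone made up 5.99% there, and in WT unnumbered alone 5.94%. On chromosome 18 these shares were 3.57% and 9.27%. The genome-wide minimum of background was lowest in K43M replicate 2, with 48.4 read ends per 10 kb against 65.3, 56.7 and 55.1.

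The class sizes depended on the lists required. Leaving out a list loosens the rule of the classes, so that counts can rise by construction. With K43M replicate 2 left out, a K43M-only region needed a peak in K43M replicate 1 alone, and a WT-only region still in both WT lists. There were then 181 WT-only and 235 K43M-only regions, and the order of the classes turned. Without K43M replicate 1 there were 262 and 152. Without WT unnumbered there were 296 and 126, and without WT replicate 2 there were 324 and 142. The overlap of the lists in bases on chromosome 18, as the Jaccard index, was 0.648 between the WT lists, 0.608 between the K43M lists and between 0.509 and 0.567 across the genotypes.

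WT-only regions were spread over the whole chromosome. They outnumbered K43M-only regions in 15 of 19 windows, were fewer in 3 and equal in 1. The clearest stretch was at the centromeric end, where windows 1 and 2 held 22 WT-only and 0 K43M-only regions. The lists had 53, 47, 39 and 24 regions in window 1 and 67, 59, 49 and 36 in window 2, with both WT lists above both K43M lists.

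The windows richest in regions were windows 8 and 14. Window 8, from 35000001 to 40000000 in mm10, held 227 regions and 120 protein-coding genes, among them the clustered protocadherins. Its lists had 164, 160, 147 and 139 regions, with 94 shared, 23 WT-only and 10 K43M-only. Window 14, with *Tcf4*, *Malt1* and *Ldlrad4*, had 126, 127, 112 and 102 regions by list, of which 67 were shared, 21 WT-only and 7 K43M-only.

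The windows with more K43M-only regions were 5, 12 and 17. Window 17, which holds *Nfatc1*, had 102, 96, 111 and 100 regions by list, 66 of them shared, 5 WT-only and 12 K43M-only. Window 5 had 60, 55, 67 and 46 regions by list, with 8 WT-only and 10 K43M-only, and window 12 had 38, 46, 55 and 39, with 3 and 5. In these windows K43M replicate 1 was the highest list, and K43M replicate 2 was not above both WT lists in any of them. K43M replicate 2 was the lowest list in 16 of the 19 windows.

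**Figure D3:**
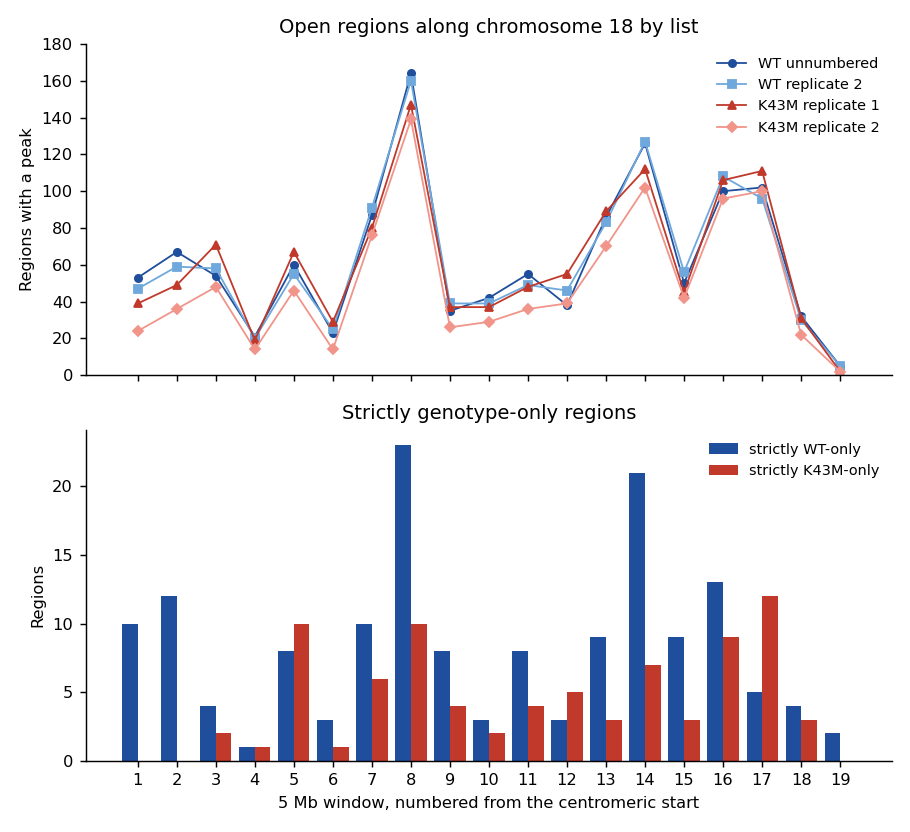
Upper panel, number of regions with a peak in each list per 5 Mb window of chromosome 18. Lower panel, number of regions open strictly in WT lists or strictly in K43M lists in the same windows; windows 1 and 2 hold 10 and 12 WT-only and no K43M-only regions, and window 17 holds 5 and 12.

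Shared and genotype-only regions differed in kind. Promoters, taken as 2000 bp before to 200 bp after any annotated transcription start, were met by 285 of the 662 shared regions (43.1%, 39.3 to 46.9), by 12 of the 156 WT-only regions (7.69%) and by 17 of the 82 K43M-only regions (20.7%, 13.4 to 30.7). On the other autosomes these shares were 53.0%, 16.7% and 24.5%. WT-only regions were mostly distal: 78 (50.0%, 42.2 to 57.8) were intergenic and 61 (39.1%) intronic. Among K43M-only regions 24 (29.3%, 20.5 to 39.9) were intergenic and 37 (45.1%) intronic.

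CpG-rich sequence, typical of the promoters of widely used genes, surrounded the summit of 200 shared regions (30.2%), of 9 K43M-only regions (11.0%) and of 0 of 156 WT-only regions, which allows a share of up to 1.92%. On the other autosomes 2.35% of the WT-only regions were CpG-rich. The median distance to the nearest transcription start was 7864 bp for shared, 26230 bp for WT-only and 26332 bp for K43M-only regions.

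Genotype-only regions were weak peaks. Shared regions had median fold enrichments of 8.51, 8.29, 8.85 and 8.15 in the 4 lists, whereas WT-only regions had 5.63 and 5.21 in the WT lists and K43M-only regions had 5.40 and 5.53 in the K43M lists. Their median pileups were 18 and 15 for WT-only and 15.5 and 13 for K43M-only regions. Ranked by -log10 q within each list, both peaks fell in the upper 50% of their lists at 13 WT-only regions (8.33%) and 4 K43M-only regions (4.88%). On the other autosomes these shares were 8.91% and 11.6%.

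Short motifs were looked for in the 100 bp on each side of a summit, on either strand. CTCF, the insulator protein, had its motif at 27 shared regions (4.08%, 2.82 to 5.87), at 8 WT-only regions (5.13%, 2.62 to 9.79) and at 1 K43M-only region (1.22%, 0.216 to 6.59), with overlapping intervals. The AP-1 motif, TGACTCA or TGAGTCA, was found at 4.83%, 3.21% and 6.10% of these classes. The ETS motif CCGGAAGT was found at 3.93% of shared regions and at 1 region of either other class, and the NRF-1 core GCATGCGC at 1.66% of shared regions and at 0 of 156 and 0 of 82, which allow 1.92% and 3.66%. Over all regions of the other autosomes, 3.99% held the CTCF, 5.96% the AP-1, 2.27% the ETS and 1.38% the NRF-1 motif. By class (shared, WT-only, K43M-only), the other autosomes had the CTCF motif at 2.62%, 2.87% and 3.04%. Their AP-1 shares were 5.07%, 5.37% and 8.11%. The ETS motif was at 4.54%, 0.767% and 0.678% of these classes, and the NRF-1 core at 2.58%, 0.335% and 0.732%. A match of these letters is not a bound site.

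**Figure D4:**
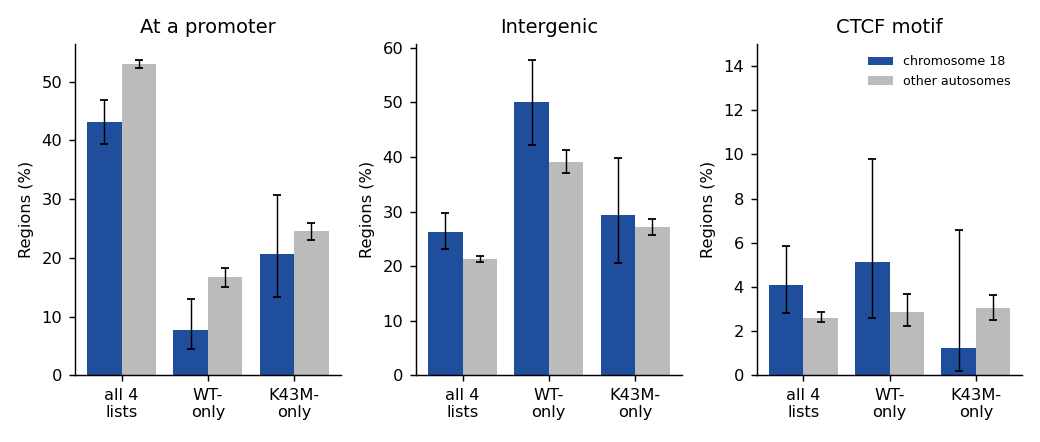
Percent of regions at a promoter, between genes, and with a CTCF motif near the summit, for regions in all 4 lists, strictly WT-only and strictly K43M-only, on chromosome 18 (blue) and the other autosomes (grey), with 95% Wilson intervals as bars. On chromosome 18, 7.69% of the WT-only regions lie at a promoter and 50.0% between genes.

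The WT-only regions of best rank lay far from promoters. The best one was at chr18:70633530-70633986, in intergenic sequence 16024 bp from the nearest protein-coding start, that of *Mbd2*, which encodes a reader of methylated DNA. Its fold enrichment was 10.5 and 10.5 in WT unnumbered and WT replicate 2, with pileups of 45 and 35. The nearest K43M peak was 9589 bp away and had a fold enrichment of 3.04. The second, at chr18:4804007-4804434, had fold enrichments of 12.3 and 15.2, with the nearest K43M peak 115868 bp away. Of the remaining 6, 3 were in introns of *Ldlrad4*, *Dym* and *Mapk4*, 1 was in an intron of *Gm4221*, and 2 were intergenic, with *Skor2* (119661 bp) and *Fbxo15* (694468 bp) as the nearest protein-coding starts. The region in *Dym* had pileups of 57 and 50 but fold enrichments of only 5.05 and 5.29, and a K43M peak lay 259 bp from it.

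The K43M-only regions of best rank included a pair beside *Ttr*, which encodes the thyroxine carrier transthyretin. They lay at chr18:20625375-20626081 and chr18:20622048-20622647, both in an intron of *Gm16090* and 39585 and 42814 bp from the *Ttr* start. The first had fold enrichments of 5.52 and 5.96 and pileups of 64 and 50 in K43M replicate 1 and K43M replicate 2, and the second had fold enrichments of 5.26 and 5.07 and pileups of 65 and 44. The nearest WT peak was 177056 bp from the first. *Ttr* itself had no promoter peak in any list. A second pair, at chr18:79047897-79048636 and chr18:79007254-79007779, lay in an intron of *Setbp1*, which encodes a SET-binding nuclear protein. Of the other 4, 2 were intergenic, 285880 bp from the *Gm5096* start and 58163 bp from that of *Zfp236*, 1 was at a promoter of *AC141471.3* and 1 in an intron of *Megf10*.

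Some long genes held many regions. *Tcf4* held 25, with 18, 20, 16 and 16 by list, 12 of them shared, 2 WT-only and 0 K43M-only. *Ldlrad4*, whose product restrains TGF-beta signalling through SMADs, held 24, with 18, 18, 11 and 10 by list, of which 7 were shared, 6 WT-only and 1 K43M-only. *Colec12*, a scavenger receptor gene, held 11, with 8, 10, 5 and 2 by list. In these 3 genes both WT lists had more regions than both K43M lists.

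Other genes showed the opposite order. *Ctif*, with a role in the translation of newly made mRNA, held 16 regions, with 9, 9, 13 and 12 by list, 7 of them shared, 0 WT-only and 3 K43M-only. *Setbp1* held 9, with 2, 3, 6 and 9 by list and 3 K43M-only. *Tnfaip8*, a regulator of cell death, also held 9, with 6, 5, 9 and 8 by list and 3 K43M-only. The 79 genes with at least 5 regions overlap in part, as the protocadherin entries do, and merged into 51 separate loci. Of these, 15 held more WT-only and 14 more K43M-only regions, and 22 held equal numbers. The genes of these 2 paragraphs were chosen after their values were seen.

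Promoters were mostly kept. Of 513 protein-coding genes on the chromosome, 273, 268, 286 and 273 had a promoter peak in the 4 lists, so that the lists differed far less for promoters than for all regions. All 4 lists had one at 251 genes (48.9%, 44.6 to 53.2), beside 47.6% of protein-coding genes genome-wide, and no list had one at 213. The remaining genes comprised 5 with a promoter peak in both WT lists only (0.975%, beside 0.515% genome-wide), 11 with one in both K43M lists only (2.14%, beside 2.00%) and 33 with other combinations.

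These small counts also changed with the lists required, and here too leaving out a list can raise them by construction. Without WT replicate 2 the WT-only genes numbered 12, and without K43M replicate 1 they numbered 9, while without WT unnumbered they numbered 5. Without K43M replicate 2 the K43M-only genes numbered 20, and without WT unnumbered they numbered 15. The genes kept in every list varied between 252 and 256 when 1 list was left out.

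At 248 of the 251 genes a single promoter region held peaks of all 4 lists, and these genes lay at 227 distinct regions. Their peaks were lower in K43M in read ends but not relative to their surroundings. Median pileup was 82.5 and 73.5 in the WT lists and 61 and 49 in the K43M lists. Both K43M lists were below both WT lists at 197 genes (79.4%), beside 24.8% of such genes genome-wide, and above both at 6 (2.42%), beside 9.06%. For fold enrichment the medians were 10.0, 10.2, 10.8 and 10.1. Both K43M lists were below both WT lists at 29 genes (11.7%, beside 18.6%) and above both at 86 (34.7%, beside 21.2%). At *Ccbe1*, *Oacyl* and *Tubb6* the lists had their peaks in separate regions, and no values are compared.

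Of the 5 genes with WT-only promoter peaks, 3 were gamma protocadherins. *Pcdhga1*, *Pcdhgb6* and *Pcdhga3* encode variable members of the cluster, each read from its own promoter. *Pcdhga1* had fold enrichments of 8.53 and 8.48 and pileups of 21 and 18 in WT unnumbered and WT replicate 2, at chr18:37661606-37661871, with the summit 10 bp from its start. *Pcdhgb6* had fold enrichments of 6.05 and 5.31, and *Pcdhga3* 4.74 and 5.05. The nearest K43M peaks were 16922, 19057 and 29457 bp away. The other genes were *Gm35060*, a predicted gene with 5.69 and 7.34, and *Arsi*, an arylsulfatase gene with 5.63 and 5.69. The *Arsi* peak touched the far end of the promoter window, 2100 bp from the start, and its region also held a peak of K43M replicate 2 with a fold enrichment of 5.39 just outside that window.

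The 11 genes with K43M-only promoter peaks had varied roles. The strongest peak was at *Rab27b*, a small GTPase of vesicle release, with 13.6 and 11.8 in K43M replicate 1 and K43M replicate 2. Its region was open in all 4 lists, with fold enrichments of 9.46 and 9.33 in the WT lists, whose narrower peaks ended before the promoter window. *Zbtb7c*, a zinc-finger repressor gene, had 7.59 and 5.93, and the nearest WT peak was 54652 bp away. *Zfp521*, encoding a zinc-finger factor that binds EBF1, the factor of B-cell commitment, had 5.98 and 6.07, from peaks in separate regions of its promoter window. *Cables1*, a CDK-binding adaptor gene, had 4.55 and 4.79.

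The remaining K43M-only promoters were weak. They belonged to *Gm9955*, *Lrrtm2* (a synaptic adhesion protein), *Pcdh1* (a protocadherin outside the clusters), *Sall3* (a zinc-finger factor of development), *Synpo* (an actin-binding protein), *Nme5* (a nucleoside diphosphate kinase relative) and *Lims2* (a focal adhesion protein). Their fold enrichments lay between 3.74 and 8.66 in the 2 K43M lists. The worse percentile of the 2 peaks was 83.3 at *Rab27b* and at most 29.7 at the other 10 genes, where 100 is the strongest peak of a list.

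The plot of promoter peaks shows these genes beside other promoters named below. All but *Pcdhga1* and *Rab27b* had their weaker peak in the lowest 30 percentiles of its list.

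**Figure D5:**
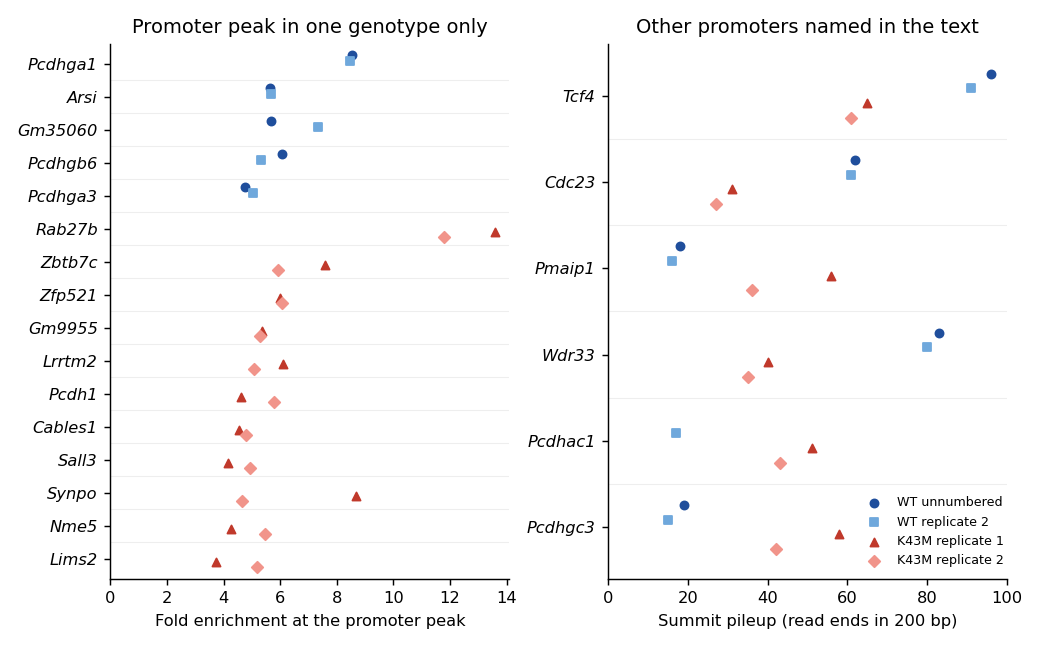
Left panel, fold enrichment of the promoter peak of each gene with a peak in both lists of 1 genotype only, with 1 point per list; a missing point means no peak in the promoter window. Right panel, summit pileup (read ends within 200 bp) at 6 other promoters, with *Tcf4* at its best shared promoter region. *Pmaip1*, *Pcdhac1* and *Pcdhgc3* lie higher in both K43M lists, and *Tcf4*, *Cdc23* and *Wdr33* higher in both WT lists.

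The genes in the groups that follow were picked by role. Of 13 genes of lymphocyte signalling and transcription, 9 had a promoter peak in all 4 lists, where 251 of all 513 protein-coding genes of the chromosome (48.9%) had one, 1 (*Zfp521*) in the K43M lists only, 1 (*Cd74*) in a single list, and 2 (*Tslp* and *Cd226*) in none. At its best shared promoter region *Tcf4* had pileups of 96, 91, 65 and 61 and fold enrichments of 8.25, 8.57, 7.93 and 9.87. *Malt1*, the paracaspase of antigen receptor signalling to NF-kB, had pileups of 122, 111, 106 and 93 and fold enrichments of 10.7, 9.91, 11.7 and 12.2. At these regions both genes were thus lower in the K43M lists by pileup. By fold enrichment the genotypes overlapped at *Tcf4*, and *Malt1* was higher in both K43M lists. Other *Tcf4* promoter regions were not all alike. That at chr18:69498904-69499676 was higher in both K43M lists, with pileups of 26, 21, 47 and 35 and fold enrichments of 6.52, 6.79, 8.79 and 8.87. That at chr18:69592320-69593743 was lower in both by pileup, with 61, 66, 45 and 29. *Nfatc1*, a calcium-dependent factor, was lower by both measures, with pileups of 81, 74, 63 and 51 and fold enrichments of 7.07, 7.20, 5.99 and 5.62. *Cd74*, the invariant chain of MHC class II, had a promoter peak in K43M replicate 1 alone, with a fold enrichment of 3.27. Regions inside the gene had peaks in all 4 lists. That at chr18:60805526-60806090 had fold enrichments of 6.54, 4.31, 4.95 and 5.99, and that at chr18:60807041-60807665 had 4.83, 4.51, 5.37 and 5.23.

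The SMAD pathway, which carries TGF-beta and BMP signals, had a promoter peak in every list at 5 of 5 genes. *Smad4*, the shared partner of the other SMADs, had fold enrichments of 8.93, 11.0, 9.63 and 10.5, and *Smad7*, their inhibitor, 5.61, 5.27, 5.16 and 5.73. The genotypes overlapped at both. *Smad2* had pileups of 113, 106, 92 and 65, lower in both K43M lists. Its fold enrichments were 8.03, 7.47, 8.39 and 8.27, slightly higher in both K43M lists.

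Cell cycle and cell death genes had 12 of 13 promoters open in all lists, *Cables1* being the exception. *Cdc25c*, the phosphatase of mitotic entry, had fold enrichments of 17.0, 18.4, 17.1 and 16.9, the highest of this group, with pileups of 94, 102, 73 and 61. *Cdc23*, a subunit of the anaphase-promoting complex, was lower in K43M by both measures, with fold enrichments of 12.9, 13.4, 9.09 and 9.46 and pileups of 62, 61, 31 and 27. *Pmaip1*, which encodes the death-promoting BH3 protein NOXA, went the other way. Its fold enrichments were 5.83 and 5.59 in the WT lists and 11.0 and 10.8 in the K43M lists, and its pileups were 18 and 16 against 56 and 36, so that it lay above the WT lists on a chromosome where most pileups were lower.

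Mitochondrial genes had a promoter peak in all lists at 11 of 11. This and the counts of the other groups stand beside 48.9% of all protein-coding genes of the chromosome. *Atp5a1*, a subunit of the ATP synthase, had fold enrichments of 8.82, 7.74, 8.36 and 9.52 and pileups of 72, 56, 47 and 39. *Ndufa2*, of respiratory complex I, had 13.2, 11.2, 13.7 and 13.8 with pileups of 94, 71, 71 and 53. *Hspa9*, the mitochondrial chaperone, had 7.89, 8.21, 12.2 and 11.5, higher in both K43M lists, with pileups of 83, 77, 76 and 61. For *Atp5a1* and *Ndufa2* the fold enrichments of the genotypes overlapped.

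Chromatin and transcription genes were open in all lists at 17 of 18. *Setbp1* lacked a promoter peak in WT replicate 2 and had fold enrichments of 5.67, 7.69 and 5.40 in WT unnumbered, K43M replicate 1 and K43M replicate 2. *Wdr33*, of mRNA 3' end formation, had 14.0, 12.7, 9.86 and 9.63, with pileups of 83, 80, 40 and 35. *Cxxc1*, which binds unmethylated CpG, had 10.9, 10.4, 13.3 and 14.2, with pileups of 108, 102, 86 and 78. *Wdr33* was therefore lower in K43M by both measures, and *Cxxc1* was lower by pileup and higher by fold enrichment.

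Promoters of other lineages were mostly without a peak. Of all 513 protein-coding genes of the chromosome, 213 (41.5%) had none in any list. Among *Csf1r*, *Cd14* and *Pdgfrb*, the receptors of myeloid and mesenchymal cells, *Csf1r* and *Pdgfrb* had none in any list, and *Cd14* had weak peaks in WT replicate 2 (4.10) and K43M replicate 2 (5.08). Of 6 genes of other tissues, *Ttr*, *Aqp4*, *Mc4r* and *Dcc* had none, *Cdh2* had one of 4.84 in K43M replicate 1 alone, and *Mbp* had one in all lists, with 3.30, 3.98, 4.66 and 3.18. The 9 desmosomal cadherin genes, spread over 644 kb, had neither a promoter peak nor the summit of any open region inside the cluster in any list.

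The clustered protocadherins, each of whose promoters gives its own surface protein, differed between the lists. Of 57 protein-coding entries, 49 had no promoter peak in any list, beside 41.5% of all protein-coding genes of the chromosome. The lists had 7, 5, 2 and 2 entries with one. The beta cluster, at chr18:37264938-37524479, held 6 and 3 regions in the WT lists and 0 in either K43M list. *Pcdhb3*, *Pcdhb16* and *Pcdhb21* had promoter peaks in WT unnumbered alone, with fold enrichments of 5.47, 4.73 and 5.88, so that 3 of the 7 entries of that list had no peak in WT replicate 2. The gamma cluster held 7, 7, 5 and 4 regions by list.

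Some protocadherins of the C type, at the ends of the clusters, showed the opposite order. *Pcdhgc3* had a promoter peak in all 4 lists, with fold enrichments of 6.76 and 6.50 in the WT lists and 11.2 and 9.64 in the K43M lists, and pileups of 19 and 15 against 58 and 42. *Pcdhac1* had no peak in WT unnumbered, 6.29 in WT replicate 2 and 11.1 and 9.21 in the K43M lists, with pileups of 17 against 51 and 43. *Pcdhac2*, *Pcdhgc4* and *Pcdhgc5* had no promoter peak in any list. The 2 C-type promoters with a peak thus had stronger ones in the K43M lists, whereas the variable gamma and beta promoters with a peak among the 57 entries were open in WT lists alone. This did not hold for *Pcdhgb8*, a variable gamma gene that the annotation calls a polymorphic pseudogene and that is outside the 57 entries, named here after its values were seen. Its promoter region, at chr18:37761218-37761843, was open in all 4 lists, with fold enrichments of 7.29, 8.93, 7.94 and 5.94 and pileups of 20, 24, 16 and 11.

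Large differences of fold enrichment at shared regions were few. Both K43M lists were at least 1.5 times above both WT lists at 5 of the 662 regions (0.755%), beside 0.571% genome-wide, and both WT lists at least 1.5 times above both K43M lists at 3 (0.453%), beside 0.362%. Of the 5 higher in K43M, 2 were the promoters of *Pmaip1* and *Prelid3a*, a gene for mitochondrial phospholipid transfer. *Prelid3a* had fold enrichments of 4.90, 4.19, 8.11 and 8.03 and pileups of 19, 18, 42 and 39. The region with the largest difference lay between genes at chr18:40638783-40639228, with fold enrichments of 6.41, 6.94, 14.5 and 14.9. The remaining 2 were in introns of *Dym* and *Csnk1g3*.

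The 3 regions lower in K43M were all distal. At chr18:38056033-38056705, in an intron of *AC121886.1*, fold enrichments were 10.8 and 9.94 in the WT lists and 4.76 and 5.08 in the K43M lists, with pileups of 38 and 35 against 9 and 9. Another lay between genes, 111868 bp from the nearest protein-coding start, that of *Wac* (11.7, 9.46, 5.71 and 5.08). The last lay in an intron of *Esco1* (9.76, 9.13, 5.23 and 4.57). The 6 kept promoters whose pileup was above both WT lists in both K43M lists were those of *Pmaip1*, *Pcdhgc3*, *Prelid3a*, *Pcyox1l*, *Cfap53* and *Hbegf*. *Pcyox1l* had pileups of 45, 53, 73 and 63, and *Hbegf*, a ligand of the EGF receptor, had 13, 15, 21 and 19.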

How the data were processed

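The authors trimmed reads with Trimmomatic 0.36, mapped them to mm10 with BWA 0.7.15, processed alignments with SAMtools 1.3.1 and called peaks with MACS2 2.1.0 (--nomodel --shift -100 --extsize 200). No control is named, and every list comes from 1 library. The deposited fold enrichment is the authors' ratio of summit signal to background. The deposited -log10 p and the deposited -log10 q are the authors' values for a peak within its list. No columns of the files belonged to other samples, and reads were not analysed here, so total depth was not measured. The genome-wide minimum of background was 65.3 and 56.7 read ends per 10 kb in the WT lists. In the K43M lists it was lower, with 55.1 and 48.4. Replicate numbers name lines and do not pair them.

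Summit pileup and background were recovered from fold enrichment and -log10 p by the Poisson model of MACS2, for 100% of the peaks. Recovered backgrounds above the minimum of their list were whole read ends within 0.1, and those at the minimum were not part of this check. On chromosome 18, 593 of the shared regions were above the minimum in all lists, and there the background difference was -0.48. Code was tested on simulated data. On the log2 scale, background and pileup were centred on the median over autosomal regions in all 4 lists. Pileups and backgrounds given as read ends, among them those of single genes, are not centred and carry any difference between the libraries. A gene's values came from 1 promoter region, that with peaks of the most lists and then the best rank, except where its lists had no region in common. Starts came from GENCODE mouse release 21, on the same build. CpG-rich meant over 50% G and C and a CpG ratio over 0.6 within 500 bp of the summit. Shares have 95% Wilson intervals, which, like the limit for a count of 0 (3 counts), cover counting error only. No test was made, because the contrast had chosen the chromosome.

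Named were the protein-coding genes with promoter peaks in both lists of 1 genotype only, the 8 regions per genotype of best rank (the worse within-list percentile by -log10 q), and a panel by role. The members and lists were chosen with earlier results of these data known. Alternative settings concerned the threshold and number of peaks, the overlap, the promoter window, the transcripts, the centring and the lists included. Calculations used samtools 1.23.1 and Python 3.11.15 with scipy 1.17.1, pandas 2.3.3, numpy 2.4.6, matplotlib 3.10.9 and pysam 0.24.0.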

Additional observations from a re-analysis of the deposited data

How the results depend on the processing

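Of 56 recomputed values, 38 stayed within 1.5 times the count, within its interval for a share, or within 0.0321 log2 (the largest SD between lists of a genotype) for the background; 18 moved and no single value changed sign, but the order of the region classes turned without K43M replicate 2 (181 strictly WT-only and 235 strictly K43M-only). A -log10 q of at least 3 or an overlap of at least 100 bp moved none of the counts by over 1.5 times. With one list left out, strictly WT-only regions ranged from 181 to 324, strictly K43M-only regions from 126 to 235, the share of regions in all lists from 42.8% to 45.6%, genes with WT-only promoter peaks from 5 to 12, genes with K43M-only promoter peaks from 11 to 20, genes kept in all lists from 252 to 256, and the background difference from -0.48 to -0.44. Requiring fewer lists raises these counts by construction. With the best 33038 peaks of each list, 6 in place of 11 genes had K43M-only promoter peaks and 55 in place of 82 regions were strictly K43M-only, while strictly WT-only regions numbered 174. A promoter window of 500 bp on either side of a start left 3 in place of 5 genes with WT-only peaks. The background difference was -0.43 away from promoters, with centring on those regions too, and -0.37 for summit pileup. Counting a promoter by its merged region, an alternative chosen after seeing the data, gave 4, 10 and 252 genes. No paired analysis was possible because replicate numbers do not pair the lines of the genotypes. Few read ends under the weak peaks limit what a missing peak can show.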
